A study of Homo sapiens with 6 samples.

Results

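The genes described here are 36 genes of glycolysis and of the response to low oxygen, chosen by gene symbol from the 58735 genes counted in H1155 cells. They comprise 18 enzymes of the path from glucose to lactate, 4 transporters of glucose or lactate, 3 regulators of flux through the pathway, 9 targets of the hypoxia-inducible factors (HIF) and the 2 HIF alpha subunits HIF1A and EPAS1. All 36 symbols were in the table, and 35 passed the filter on low counts that 17514 genes passed. RNA-Seq was done on 3 libraries labelled WT, from untreated parental H1155 cells with a wild-type genotype, and on 3 libraries labelled GFI1-KO, from untreated H1155 cells in which the gene of the transcriptional repressor GFI1 was targeted. H1155 is a cell line of neuroendocrine large cell lung cancer, and both kinds of cells were grown in DMEM with fetal bovine serum. For the knockout, Cas9 and GFP were introduced together with pairs of guides against the promoter region of GFI1, and GFP-positive cells were sorted into monoclonal clones. The labels do not give the clone behind each GFI1-KO library or say whether the 3 libraries of a group came from separate cultures, so the p-values measure only the spread between these libraries, which may be technical, and a clone and the edit cannot be told apart.

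Glycolysis splits glucose into pyruvate in the cytosol, and lactate dehydrogenase turns pyruvate into lactate while restoring the NAD+ that the pathway consumes. Many steps are served by isozymes encoded by different genes, whose balance differs between tissues and often between tumors and their tissue of origin. In oxygenated cells, prolyl hydroxylases mark the HIF alpha subunits for degradation, and in low oxygen the stabilized subunits pair with ARNT, bind the DNA letters ACGTG or GCGTG and activate genes of glycolysis, blood vessel growth and mitophagy. HIF1A and EPAS1 are regulated mostly as proteins, which RNA-Seq does not measure, and no oxygen level was varied in these libraries.

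The targeted gene was examined before the members. GFI1 (ENSG00000162676) was counted 153, 106 and 125 times across the WT-labelled libraries and 174, 188 and 170 times across those labelled GFI1-KO, so its counts did not fall with the label. Normalized counts, which are scaled to a common library size, averaged 135 ± 19.9 for WT and 168 ± 9.28 for GFI1-KO (SD, n = 3 per group), and the log2 fold change was 0.31 (SE 0.12, adjusted p = 0.0273 by edgeR's quasi-likelihood test). This change in GFI1 was not called by DESeq2 (adjusted p = 0.127) or with the offsets for base composition described below (adjusted p = 0.213 by edgeR). Guides at the promoter region need not remove every exon, and which exons these counts came from was not analysed here, so every direction given below rests on the labels. Library totals were 14882914 to 17692882 counts. All 9 neuroendocrine markers were counted in both groups, with summed levels of 2080 to 2104 CPM (counts scaled to a fixed library total) in WT and 3071 to 3111 in GFI1-KO (6 called higher and 3 lower), while 5 proliferation markers summed to 2692 to 2727 CPM and 2059 to 2123 CPM. Of 4 leukocyte markers, PTPRC, CD3E and CD14 had at most 3 counts in every library. The other markers were summed too, with 205 to 217 CPM in WT and 239 to 263 CPM in GFI1-KO for 5 epithelial genes (1 called higher and 2 lower, KRT8 at a log2 fold change of 0.45, EPCAM at -2.23 and CDH1 at -2.31), 27.0 to 30.4 and 13.2 to 14.9 CPM for 3 endothelial genes, and 191 to 196 and 125 to 130 CPM for 5 fibroblast genes, with KRT19, VWF and DCN at or under 3 counts in each library. The part of these differences in the results was not tested, and fewer cells of a kind cannot be told apart from less RNA per cell.

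Across the 35 members tested, 18 were called higher and 15 were called lower in the GFI1-KO libraries (adjusted p of 0.05 or less), and ALDOC and NDRG1 were not called. Of all 17514 genes tested, 72.4% were called, 36.5% as higher and 35.9% as lower, so that a called gene was the rule in this comparison. Normalized counts did not overlap between the groups for 32 of the 35 members, against 74.4% of all genes tested. The median log2 fold change of the members was 0.14, against 0.00050 over all genes tested, and their values ran from -1.62 for HK2 to 2.01 for ALDOA. The members therefore changed in both directions.

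**Figure D1:**
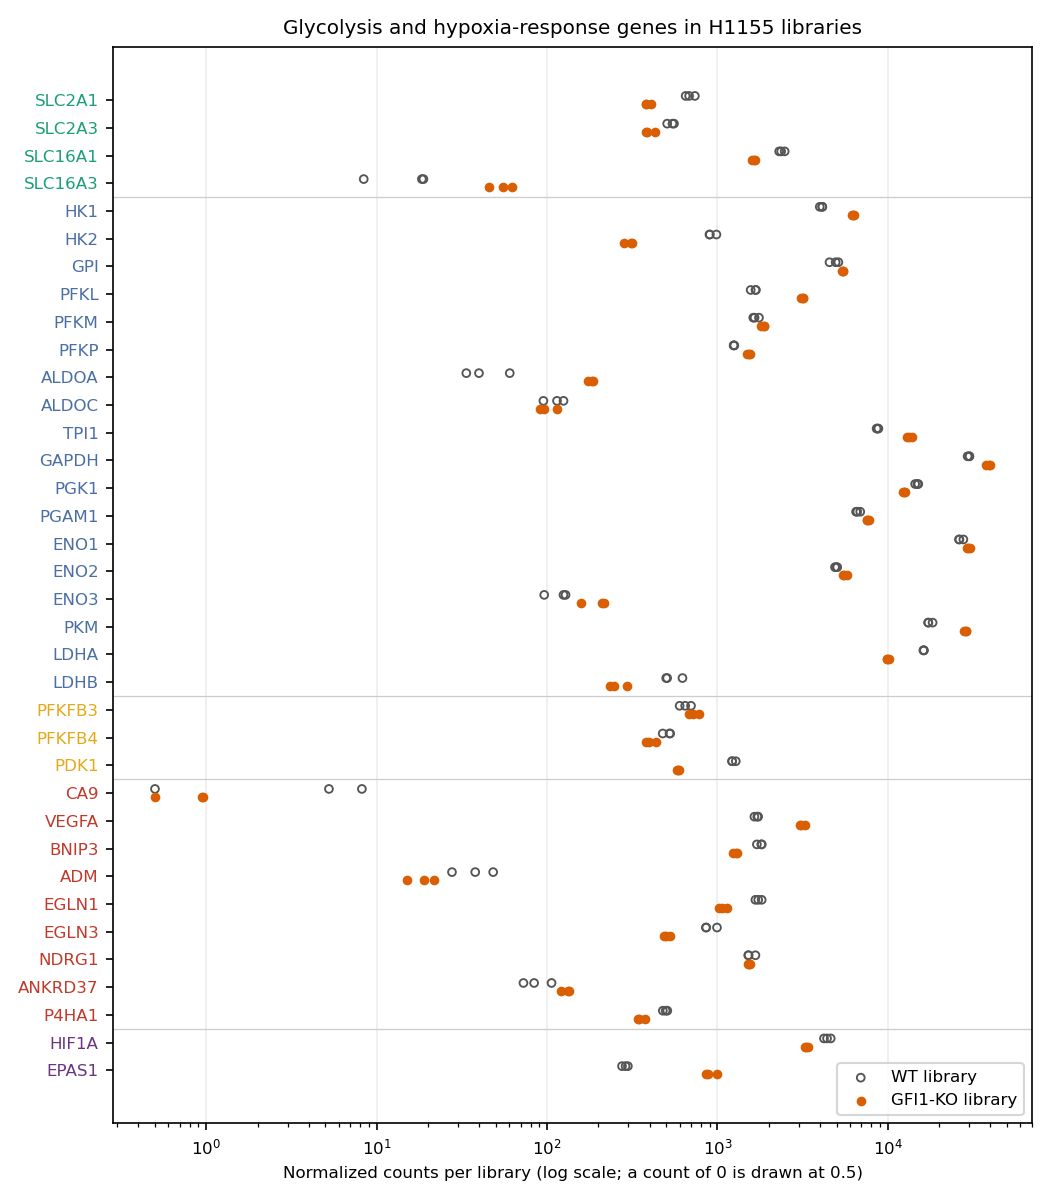
Normalized counts of the 36 members in each library on a log scale, with WT libraries as open grey and GFI1-KO libraries as filled orange points and with the gene names colored by role. HK2, PDK1 and EGLN3 lie clearly lower and EPAS1, PFKL and VEGFA clearly higher in the GFI1-KO libraries, while the points of ALDOC, PFKFB3 and NDRG1 overlap.

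A trend with base composition ran through the comparison and bears on each member. Over 17415 genes, the log2 fold change rose with the GC content of the longest transcript (Spearman's rho 0.574), as it did over the 35 members (0.558) and the 18 enzymes (0.728), while rho was -0.14 over the 8 hypoxia targets tested. These values are descriptions across genes that share the same 6 libraries. The enzymes had a median GC content of 53.2%, against 48.2% over all genes. Each member was therefore also fitted with offsets for GC content and gene length, called the corrected value below, and with them 11 members were higher, 16 lower and 8 not called, against 33.2% and 27.7% of all genes called higher and lower. Of the members, 10 stayed higher and 12 stayed lower under both fits. The 10 were HK1, PFKL, ALDOA, TPI1, ENO3, PKM, SLC16A3, VEGFA, ANKRD37 and EPAS1, and the 12 were HK2, LDHA, LDHB, SLC2A1, SLC2A3, SLC16A1, PFKFB4, PDK1, BNIP3, ADM, EGLN1 and EGLN3. Whether the trend came from the cells or from library preparation was not tested.

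**Figure D2:**
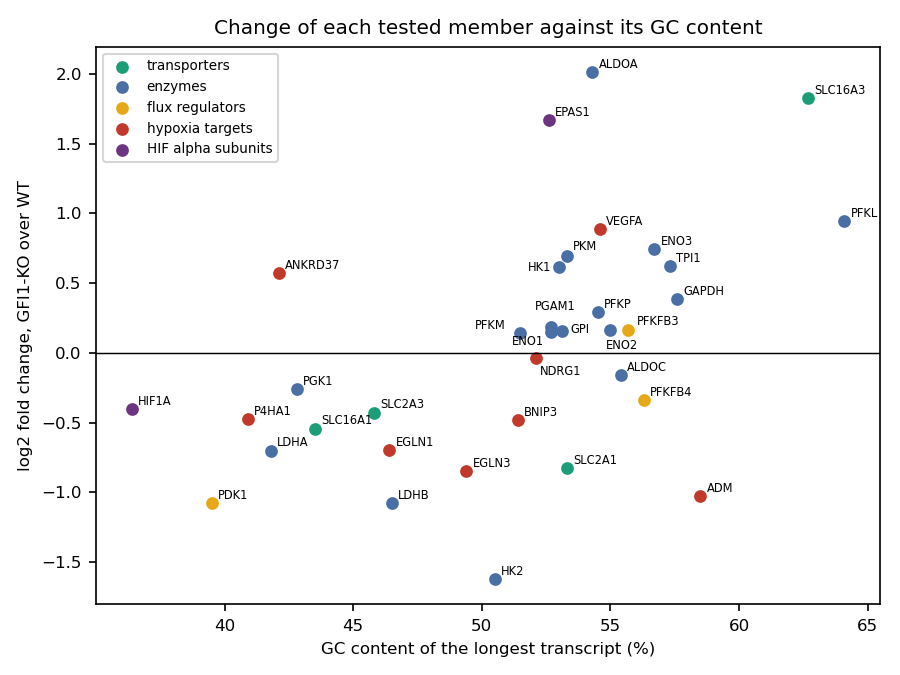
log2 fold change of each of the 35 tested members, GFI1-KO over WT, against the GC content of its longest transcript in percent, colored by role. Members under 45% GC, such as PDK1, LDHA and HIF1A, lie below 0 except ANKRD37, and most enzymes above 50% GC lie above 0, with HK2 and ALDOC as the enzymes that do not.

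Both genes for glucose transporters fell in the libraries labelled GFI1-KO. SLC2A1, which encodes the widely expressed glucose transporter GLUT1, had 737, 682 and 651 normalized counts in WT and 405, 381 and 382 in GFI1-KO. Every GFI1-KO library lay below every WT library, with a log2 fold change of -0.83 (SE 0.07, adjusted p = 2.49e-11), and the corrected value was -1.03. SLC2A3, which encodes the high-affinity transporter GLUT3 of neurons, had 556, 507 and 545 normalized counts in WT and 386, 382 and 428 in GFI1-KO, again without overlap. The change of SLC2A3 on the log2 scale was -0.43 (SE 0.07, adjusted p = 6.66e-06), with a corrected value of -0.25. Of the 50-base words in SLC2A3 transcripts, 14.8% also occur in other genes, most in SLC2A14, which had at most 3 counts in any library.

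The lactate carriers moved in opposite directions. SLC16A1, which encodes the proton-coupled monocarboxylate transporter MCT1, had 2304, 2366 and 2481 normalized counts in WT and 1663, 1643 and 1603 in GFI1-KO. The groups were far apart relative to their spread, and the log2 fold change was -0.54 (SE 0.04, adjusted p = 3.23e-12), with a corrected value of -0.26. SLC16A3, which encodes MCT4, the carrier known for lactate export from highly glycolytic cells, was scarce, with means of 15.2 ± 5.91 and 54.3 ± 8.21 normalized counts in WT and GFI1-KO (SD, n = 3 per group). Still, the log2 fold change of 1.83 (SE 0.29, adjusted p = 2.63e-06) was the largest among the transporters, with a corrected value of 1.26. Per gene length it made up 1.92% of the summed FPKM (counts scaled to gene length and library total) of the pair in GFI1-KO, up from 0.379% in WT, or 4.58% and 0.921% with the length of the canonical transcript. SLC16A3 overlaps CSNK1D on the opposite strand, and the strand setting of the counting is not given in the sources used here. CSNK1D had 1971, 1822 and 1825 counts in WT and 3410, 3513 and 3562 in GFI1-KO, and its part in the SLC16A3 counts was not tested.

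The hexokinases, which trap glucose in the cell by phosphorylating it, moved in opposite directions. HK2 (chr2:74833981-74893359, plus strand) encodes the inducible hexokinase typical of muscle and of many tumors. It had 902, 898 and 987 normalized counts in WT and 281, 310 and 316 in GFI1-KO, so the highest GFI1-KO library had fewer counts than the lowest WT library by a wide margin. HK2 had a log2 fold change of -1.62 (SE 0.07, adjusted p = 2.80e-17), a 3.07-fold lower level, and the corrected value was -1.65. HK1, the housekeeping hexokinase of brain and most other tissues, rose from 4078 ± 79.3 to 6242 ± 87.7 normalized counts (SD, n = 3 per group), with a log2 fold change of 0.61 (SE 0.03, adjusted p = 3.52e-15) and a corrected value of 0.47. HK2 made up 18.5%, 19.0% and 19.9% of the summed hexokinase FPKM of HK1 and HK2 in WT and 4.40%, 4.91% and 5.06% in GFI1-KO. The shares did not overlap, and the exact two-sided permutation test gave p = 0.1, the smallest that 3 libraries against 3 allow. With the length of the canonical transcript the mean share of HK2 was 12.7% in WT and 3.01% in GFI1-KO, a difference of -9.71 percentage points in place of -14.3.

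At the next steps most changes were small, with PFKL as the exception. GPI, which converts glucose 6-phosphate to fructose 6-phosphate, had a log2 fold change of 0.16, and its corrected value of 0.03 was not called (adjusted p = 0.479 by edgeR's test). PFKL, the liver-type phosphofructokinase of the committing step, had 1672, 1682 and 1567 normalized counts in WT and 3112, 3164 and 3189 in GFI1-KO. The log2 fold change was 0.94 (SE 0.04, adjusted p = 1.56e-17), a 1.92-fold higher level, and the corrected value was 0.32. The muscle-type PFKM and the platelet-type PFKP rose by log2 fold changes of 0.14 and 0.29, and their corrected values of 0.08 and 0.03 were not called. Accordingly PFKL took 38.3% ± 0.496 of the phosphofructokinase FPKM in GFI1-KO, against 27.4% ± 1.10 in WT (SD, n = 3 per group, exact p = 0.1). PFKM took 34.1% in WT and 27.4% in GFI1-KO, and PFKP took 38.5% and 34.3%. All shares within families were computed without the offsets, so they carry the trend with GC content. PFKL has a GC content of 64.1%, against 51.5% for PFKM and 54.5% for PFKP.

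The aldolases, which split fructose 1,6-bisphosphate, were counted at very low levels for a pathway enzyme. ALDOA had 60.4, 39.9 and 33.6 normalized counts in WT and 186, 173 and 184 in GFI1-KO. The groups were far apart, and the log2 fold change was 2.01 (SE 0.17, adjusted p = 2.87e-11) with a corrected value of 1.72. The level of ALDOA is uncertain, because 42.8% of its exon bases lie in the gene AC093512.2 on the same strand and 47.7% of its 50-base words occur in other genes. AC093512.2 itself rose from 88.5 ± 11.7 to 199.8 ± 14.1 normalized counts (SD, n = 3 per group), a log2 fold change of 1.18. The gene AC005726.1 spans ALDOC on the same strand, with 97.4 ± 5.37 normalized counts in WT and 94.1 ± 11.2 in GFI1-KO (SD, n = 3 per group). In the annotation used here, 0% of ALDOC exon bases lie in another gene on that strand. The part of AC005726.1 in the ALDOC counts was not tested. ALDOC, the brain-type aldolase, had 112 ± 15.1 and 100.04 ± 12.3 normalized counts (SD, n = 3 per group). The groups overlapped, and the log2 fold change of -0.16 was not called (SE 0.15, adjusted p = 0.344), whereas the corrected value was -0.54 (adjusted p = 0.0029, edgeR).

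TPI1, which interconverts the triose phosphates, rose from 8698 ± 104 to 13399 ± 451 normalized counts (SD, n = 3 per group), with a log2 fold change of 0.62 and a corrected value of 0.13, both called. GAPDH, the dehydrogenase often taken as a reference gene, had 29857 ± 401 normalized counts in WT and 39072 ± 1032 in GFI1-KO (SD, n = 3 per group). Its log2 fold change of 0.39 turned to -0.11 with the offsets (adjusted p = 0.0019, edgeR), so its direction depends on the correction. TPI1, GAPDH and the neuron-type enolase ENO2 lie within a short stretch of chromosome 12. The tested genes within 2 Mb of each had median log2 fold changes of 0.49 (59 genes), 0.44 (62 genes) and 0.47 (60 genes), above the median of all genes. These windows overlap, so the medians are not separate values. SLC2A3, nearby at chr12:7919230-7936275, had 74 such genes with a median of 0.43 and itself a log2 fold change of -0.43. Around the members such medians ranged from -0.49 at PGK1 (9 genes) to 1.39 at PFKP (8 genes), with 0.49 at ALDOA (121 genes). These medians were taken without the offsets, so they carry the trend with GC content. The part of the neighborhood in the changes of these genes was not tested. Of the 50-base words of GAPDH and TPI1, 21.6% and 12.6% occur in other genes.

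PGK1, which makes the pathway's earliest ATP, fell from 14823 ± 324 to 12398 ± 149 normalized counts (SD, n = 3 per group). The fold change was -0.26 on the log2 scale, and the corrected value 0.06 was not called (adjusted p = 0.0785, edgeR). PGAM1, the phosphoglycerate mutase, had a log2 fold change of 0.19 and ENO1, the ubiquitous enolase, one of 0.15. With the offsets these became -0.06 and -0.0050, neither of which was called. ENO2 went from 0.16 to -0.15, called in both fits with opposite signs. ENO3, the muscle-type enolase, had 96.2, 128 and 125 normalized counts in WT and 159, 210.4 and 216 in GFI1-KO, without overlap. For ENO3 the log2 fold change was 0.75 (SE 0.14, adjusted p = 2.31e-05), with a corrected value of 0.34. Of the ENO3 exon bases, 2.59% overlap other genes on the opposite strand, where PFN1 lies. PFN1 had 6571, 6083 and 6434 counts in WT and 7795, 8045 and 7641 in GFI1-KO, and its part in the ENO3 counts was not tested. Beside these changes the shares within the enolases were close, with ENO1 at 81.0% of the family's FPKM in WT and 80.7% in GFI1-KO (exact p = 0.3) and ENO2 at 18.6% and 18.7% (exact p = 0.8).

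The enzymes on either side of pyruvate moved in opposite directions. PKM, the pyruvate kinase that makes pyruvate, rose from 17619 ± 603 to 28473 ± 473 normalized counts (SD, n = 3 per group), with a log2 fold change of 0.69 (SE 0.03, adjusted p = 1.99e-16) and a corrected value of 0.54. LDHA (chr11:18394388-18408425, plus strand), the lactate dehydrogenase subunit associated with lactate production, had 16266, 16169.7 and 16265 normalized counts in WT and 9882, 10206 and 9894 in GFI1-KO. Its spread was small beside the difference, a log2 fold change of -0.70 (SE 0.03, adjusted p = 7.36e-17) with a corrected value of -0.32. LDHB, the heart-type subunit, had 507, 500.4 and 623 normalized counts in WT and 293, 247 and 233 in GFI1-KO, also without overlap. LDHB had a log2 fold change of -1.08 (SE 0.09, adjusted p = 6.92e-11), with a corrected value of -1.04. Of the LDHB words of 50 bases, 29.4% occur in other genes, most in AC010197.2, which had at most 2 counts. Another gene on the same strand covers 33.4% of the LDHB exon bases. How reads in shared exons were counted is not given in the sources used here, so the level of LDHB and the shares below are uncertain. LDHA made up 93.5% ± 0.761 of the summed FPKM of the 2 subunits in WT and 94.9% ± 0.627 in GFI1-KO (SD, n = 3 per group, exact p = 0.1), a shift of 1.41 percentage points while both subunits fell.

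**Figure D3:**
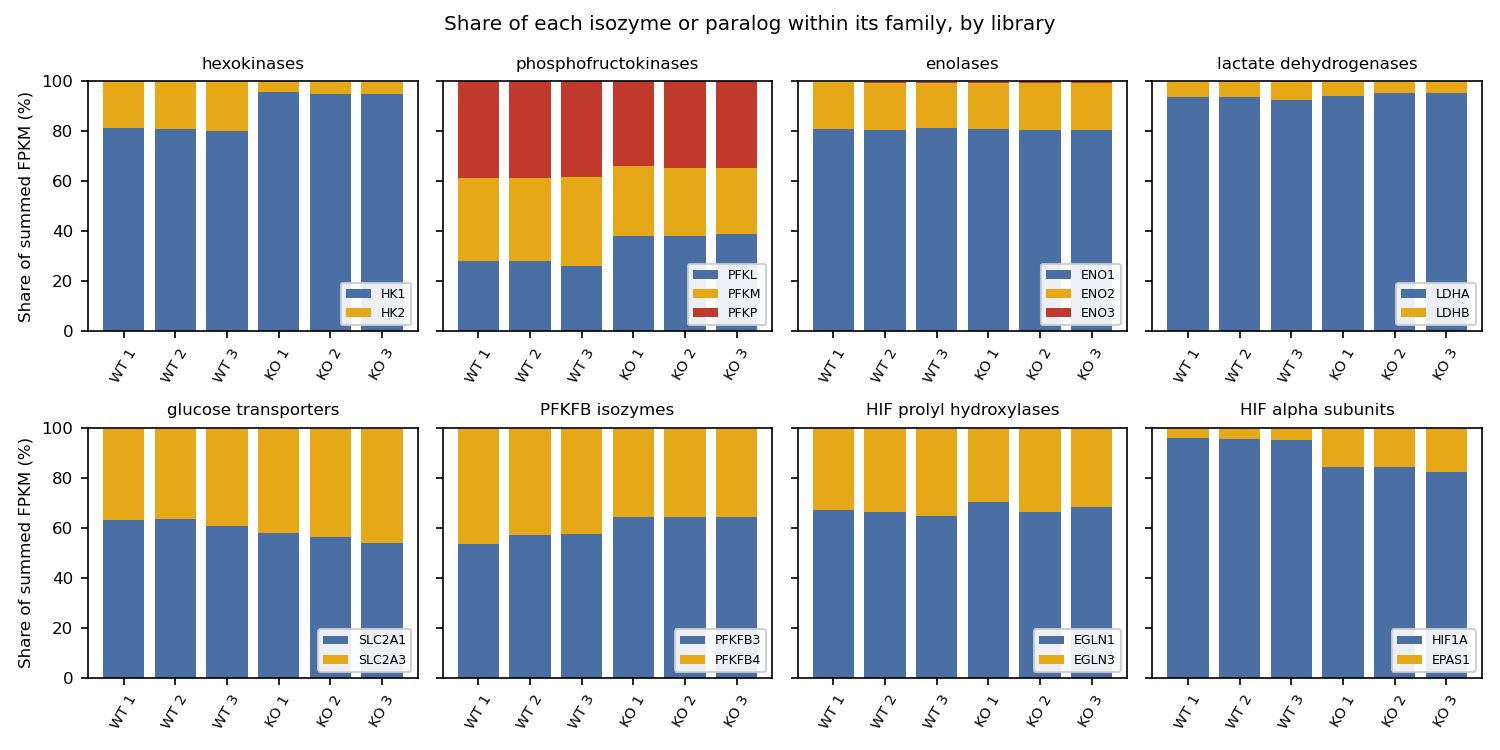
Share of each gene in the summed FPKM of its family, in percent, as stacked bars for each of the 3 WT and 3 GFI1-KO libraries. HK2 narrows from 19.1% to 4.79% of hexokinase and EPAS1 widens from 4.40% to 16.2% of the HIF alpha subunits, while ENO1 lies at 81.0% and 80.7% and LDHA at 93.5% and 94.9%.

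Among the regulators of flux, PDK1 had the largest change before the correction and PFKFB4 after it. PDK1 encodes a kinase that inactivates pyruvate dehydrogenase and so keeps pyruvate out of the mitochondrial cycle, and it is a known HIF target. PDK1 (chr2:172555373-172608669, plus strand) had 1221, 1218 and 1282 normalized counts in WT and 597, 585 and 583 in GFI1-KO. The groups did not come near each other, with a log2 fold change of -1.08 (SE 0.05, adjusted p = 8.82e-16) and a corrected value of -0.54. PFKFB4, one of the enzymes that set the level of the phosphofructokinase activator fructose 2,6-bisphosphate, had 523, 528 and 478 normalized counts in WT and 396, 435 and 380.2 in GFI1-KO. The difference was -0.34 on the log2 scale (SE 0.07, adjusted p = 2.02e-04), with a corrected value of -0.66. Its paralog PFKFB3 had 600.0, 699.6 and 647 normalized counts in WT and 715, 785 and 685 in GFI1-KO, and the groups overlapped. The PFKFB3 log2 fold change of 0.17 had an adjusted p of 0.0252 by edgeR and 0.102 by DESeq2, and the corrected value was -0.13 (adjusted p = 0.0917, edgeR). PFKFB3 took 55.9% ± 2.23 of the summed FPKM of the pair in WT and 64.3% ± 0.0124 in GFI1-KO (SD, n = 3 per group, exact p = 0.1).

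Of the 9 hypoxia targets, 8 were tested, 5 were lower, 2 were higher and NDRG1 was not called. CA9, the cell-surface carbonic anhydrase that is a common marker of hypoxia, had 8, 0 and 5 counts in WT and 1, 1 and 0 in GFI1-KO, below the filter, so its level was near the floor of 3 counts in both groups and was not tested. The clearest decreases were in the oxygen sensors. EGLN3, an HIF prolyl hydroxylase that HIF itself induces, had 855, 860.1 and 994 normalized counts in WT and 485, 524 and 499.7 in GFI1-KO. On the log2 scale EGLN3 changed by -0.84 (SE 0.07, adjusted p = 8.18e-12), with a corrected value of -0.81. EGLN1, the main prolyl hydroxylase in oxygenated cells, had 1736, 1670.4 and 1818 normalized counts in WT and 1137, 1028 and 1057 in GFI1-KO. EGLN1 changed by -0.70 on the log2 scale (SE 0.05, adjusted p = 7.57e-13), with a corrected value of -0.54. The 2 genes fell together, and the share of EGLN1 in their summed FPKM was 66.2% ± 1.17 in WT and 68.4% ± 1.92 in GFI1-KO (SD, n = 3 per group, exact p = 0.2).

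BNIP3, a mitochondrial protein that promotes mitophagy, had 1808, 1821 and 1705 normalized counts in WT and 1284, 1232 and 1299.7 in GFI1-KO. Its log2 fold change was -0.48 (SE 0.04, adjusted p = 1.86e-10), with a corrected value of -0.57. Pseudogenes named after BNIP3 held 3.08% as many counts as the gene itself. P4HA1, a collagen prolyl hydroxylase subunit, fell from 494 ± 14.95 to 355 ± 18.6 normalized counts (SD, n = 3 per group), with a log2 fold change of -0.48, but its corrected value of -0.15 was not called (adjusted p = 0.0619, edgeR). ADM, the vasodilator peptide adrenomedullin, was scarce, with 37.9 ± 10.3 and 18.6 ± 3.26 normalized counts (SD, n = 3 per group) and a log2 fold change of -1.03 (SE 0.29, adjusted p = 0.0026, edgeR), with a corrected value of -1.57.

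The other hypoxia targets did not follow. VEGFA, the main growth factor for blood vessels, had 1713, 1734 and 1648 normalized counts in WT and 3051, 3264 and 3092 in GFI1-KO. Every GFI1-KO library exceeded every WT library, with a log2 fold change of 0.88 (SE 0.04, adjusted p = 8.50e-17), a 1.85-fold higher level, and a corrected value of 0.69. ANKRD37, a small ankyrin-repeat protein, had 72.7, 106 and 84.0 normalized counts in WT and 135, 121 and 133 in GFI1-KO. For ANKRD37 the log2 fold change was 0.57 (SE 0.15, adjusted p = 0.0013, edgeR), with a corrected value of 0.82. Of its exon bases, 40.3% overlap UFSP2 on the opposite strand. UFSP2 had a log2 fold change of 0.01 and a corrected value of 0.34 (adjusted p = 4.94e-04, edgeR). NDRG1, a stress-responsive gene, had 1571 ± 87.1 and 1531 ± 14.3 normalized counts (SD, n = 3 per group), and its log2 fold change of -0.04 had a standard error of 0.04 and an adjusted p of 0.459 by edgeR, with a corrected value of -0.12 (adjusted p = 0.0202, edgeR).

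The HIF alpha subunits themselves differed in direction. EPAS1 (chr2:46293667-46386703, plus strand), which encodes HIF-2 alpha, had 275, 289 and 298 normalized counts in WT and 885, 861 and 1000.4 in GFI1-KO. EPAS1 had a log2 fold change of 1.67 (SE 0.07, adjusted p = 4.57e-17), a 3.19-fold higher level, and it remained 1.55 with the offsets. HIF1A (chr14:61695513-61748259, plus strand), which encodes HIF-1 alpha, had 4622, 4398 and 4219 normalized counts in WT and 3416, 3271 and 3328 in GFI1-KO, without overlap. Its log2 fold change was -0.40 (SE 0.04, adjusted p = 1.86e-10), but HIF1A had the lowest GC content of all members, 36.4%, and the corrected value was 0.20 (adjusted p = 3.35e-05, edgeR). The direction of HIF1A therefore depends on the correction, whereas that of EPAS1 does not. Per gene length and without the offsets, EPAS1 rose from 4.40% ± 0.357 to 16.2% ± 1.12 of the summed FPKM of the 2 subunits (SD, n = 3 per group, exact p = 0.1), and HIF1A stayed the more abundant RNA.

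**Figure D4:**
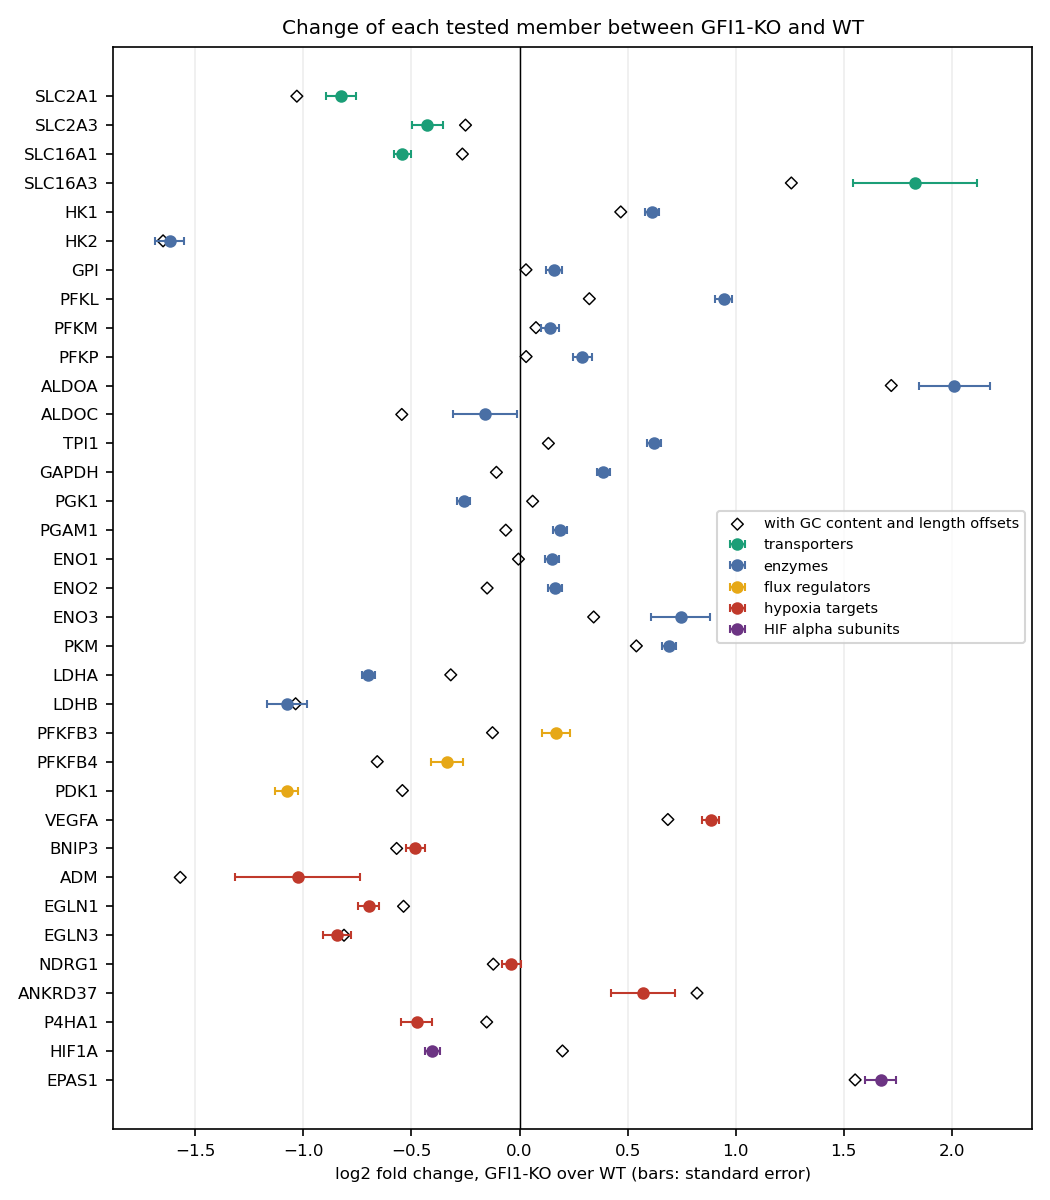
log2 fold change, GFI1-KO over WT, of the 35 tested members as colored points with standard errors, and the values with GC content and length offsets as open diamonds. Points and diamonds lie on opposite sides of 0 for GAPDH, PGK1, PGAM1, ENO1, ENO2, PFKFB3 and HIF1A, and HK2 and EPAS1 keep large changes in both.

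Set side by side, enzymes and hypoxia targets differed in the direction of most calls. Over all genes tested, 36.5% were called higher and 35.9% lower, and 33.2% and 27.7% with the offsets. Of 18 enzymes, 13 were higher and 4 lower, and the median of their log2 fold changes was 0.17. Of 8 hypoxia targets, 2 were higher and 5 lower, and the median was -0.48. With the offsets the enzymes became 6 higher, 6 lower and 6 not called, with a median of 0.03. The hypoxia targets again counted 2 higher and 5 lower, with a median of -0.34. Only 4 of the lower calls were the same in both fits, as P4HA1 lost its call and NDRG1 gained one. The surplus of higher calls among enzymes was thus not present after the correction. The difference between the 2 classes was not tested, since genes are not replicates of a condition.

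The summed RNA of the enzymes was 1919 ± 17.8 FPKM in WT and 2269 ± 47.7 FPKM in GFI1-KO (SD, n = 3 per group), a ratio of 1.18, or 1.13 without GAPDH. They took 0.855% of all counts in WT and 0.993% in GFI1-KO. The summed hypoxia targets were 71.9 ± 0.788 FPKM in WT and 60.05 ± 0.434 FPKM in GFI1-KO, a ratio of 0.836, and the ratio was 0.954 from counts without gene length. Within these sums VEGFA rose from 7.14 ± 0.186 to 13.04 ± 0.472 FPKM (SD, n = 3 per group). No sum was made with the GC content and length offsets, so the sums carry the trend with GC content. With the offsets the median log2 fold change was 0.03 for the enzymes and -0.34 for the hypoxia targets.

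HIF binds ACGTG or GCGTG, and the promoters of the members were searched for these letters on both strands. The windows were 300 bases, from 250 before to 50 after the start of each gene in RefSeq on GRCh38.p14, and 32 of the 36 members matched an entry (not NDRG1, VEGFA, SLC16A1 or SLC2A3). Either motif occurred in 24 of the 32 (75.0%), against 62.8% of the 11514 promoters of tested genes and 48.4% of all 27305 promoters. By class, 13 of 18 enzymes (72.2%) and 6 of 7 hypoxia targets (85.7%) had one. Among members called higher it was 11 of 17 (64.7%), and among those called lower 11 of 13 (84.6%). AATC, the core letters of sites bound by GFI1, occurred in 15 of the 32 (46.9%), against 61.2% of the promoters of tested genes. A match is a description of the letters, not a site of binding.

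Of the members called in both fits, 7, chosen after their values were seen, are shown with 25 bases around 1 match upstream of the start, read 5′ to 3′ on the strand of the gene. Capitals mark this 1 match, which is ACGTG or GCGTG, or CACGT, which is ACGTG on the other strand. Further matches within the windows of HK2, LDHA and BNIP3 are not marked. They include CACGC, which is GCGTG on the other strand. HK2, LDHA, BNIP3 and EGLN1 are members that fell, and EPAS1, PFKL and ANKRD37 are members that rose.
HK2, chr2:74834069-74834093, plus strand: tgggcgtgcgCACGTcactgatccg
LDHA, chr11:18394466-18394490, plus strand: gcccgactcaCACGTgggttcccgc
BNIP3, chr10:131982042-131982066, minus strand: cacgcgccgcACGTGccacacgcac
EGLN1, chr1:231422286-231422310, minus strand: gccgtggtgtACGTGcagagcgcgc
EPAS1, chr2:46297280-46297304, plus strand: gcctgccggcGCGTGcccgcccaca
PFKL, chr21:44299879-44299903, plus strand: ctcagggcccGCGTGacattgcaca
ANKRD37, chr4:185396688-185396712, plus strand: gtgtttgtgtACGTGcggccgtggc
The same letters thus stand in promoters of genes whose RNA fell and of genes whose RNA rose. PDK1 and EGLN3 fell with no such match in the window, which says only that the letters are not in these 300 bases.

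Other genes of the same pathways, 89 of them tested, were read from lists that hold no member. Together 42 were higher (47.2%) and 29 lower (32.6%), against 36.5% and 35.9% of all genes tested. After the offsets 39 were higher (43.8%) and 19 lower (21.35%), against 33.2% and 27.7% of all genes. These shares over all genes also stand beside the counts of each list below. The pentose phosphate pathway branches from glucose 6-phosphate and makes NADPH and ribose. Of its 8 genes tested, 7 were higher and 0 lower, against 5 higher and 0 lower after the offsets, and the median log2 fold change was 0.52. TKT had a log2 fold change of 0.79, PGLS of 0.80, TALDO1 of 0.65 and H6PD of 0.40, and the corrected values of PGLS and H6PD were not called.

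Genes of pyruvate handling were mostly lower before the correction. Of 17 genes for pyruvate dehydrogenase, pyruvate import and further lactate transport, 10 were lower and 4 higher (median log2 fold change -0.29), and 5 and 3 after the offsets. MPC1, a subunit of the mitochondrial pyruvate carrier, fell from 343 ± 6.96 to 146 ± 6.67 normalized counts (SD, n = 3 per group), a log2 fold change of -1.23 with a corrected value of -1.09. Its partner MPC2 had -0.49, with a corrected value of -0.27. EMB, a chaperone of lactate carriers, had -0.88, with a corrected value of -0.27. SLC16A7, another such carrier, had -0.62 and DLD, a shared dehydrogenase subunit, -0.55, and the corrected values of SLC16A7 and DLD were 0.13 and -0.0052, neither called.

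Of 30 other known HIF targets, 15 were higher and 12 were lower around a median of 0.08, and with the offsets the counts were 15 and 6 and the median 0.15. HMOX1, heme oxygenase, had a log2 fold change of 2.88 and CA12, a carbonic anhydrase, one of 2.35. CXCR4, a chemokine receptor, had -2.29 and AK4, a mitochondrial adenylate kinase, -1.56, and all 4 kept their calls with the offsets. Among 13 genes for HIF partners and degradation, 7 were higher and 3 lower. EGLN2, the remaining prolyl hydroxylase, rose by a log2 fold change of 0.91 while EGLN1 and EGLN3 fell, and the coactivator EP300 rose by 0.58. CUL2 and CITED2 had -0.54 and -0.52, and ELOB had 0.44. With the offsets CITED2 had -0.55, while CUL2 at -0.11 and ELOB at 0.10 were no longer called. Of 12 other glycolysis isozymes and glucose transporters tested, 4 were higher and 2 lower, among them the transporter SLC2A8 at 0.61, PFKFB2 at 0.24, ADPGK at 0.16 and BPGM at -0.23. Their corrected values were -0.05 for SLC2A8 and -0.06 for BPGM, neither called, 0.56 for PFKFB2 and 0.24 for ADPGK. Of 9 genes of gluconeogenesis and glycogen, 5 were higher and 2 lower, with PYGB at 0.56, G6PC3 at 0.55, PCK2 at 0.49, PGM1 at -0.41 and UGP2 at -0.39. With the offsets PCK2 turned to -0.13 and UGP2 to 0.13, both called, PYGB at 0.08 was not called, and G6PC3 at 0.18 and PGM1 at -0.38 kept their calls.

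**Figure D5:**
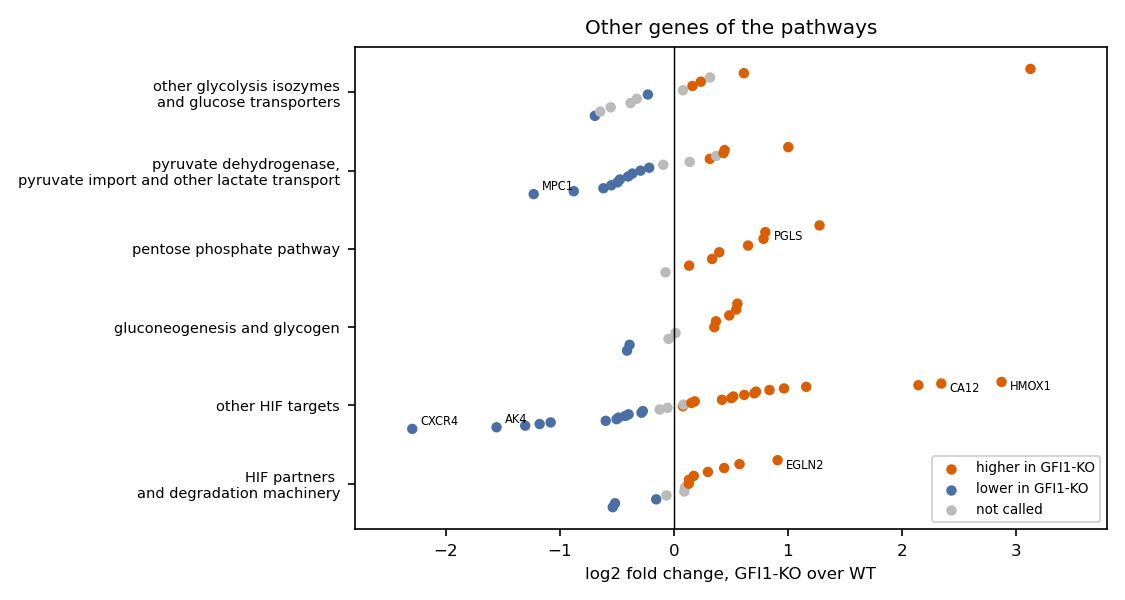
log2 fold change, GFI1-KO over WT, of each tested gene of 6 further lists, colored orange where higher, blue where lower and grey where not called. The pentose phosphate genes lie at or above 0 except 1 not called, and the other HIF targets spread from -2.29 to 2.88.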

How the data were processed

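RNA-Seq counts of 3 WT and 3 GFI1-KO libraries of H1155 cells were analysed. Other experiments of the study were not used here. The authors deposited raw counts per gene on GRCh38/hg38, made from poly-T–selected mRNA. The methods of the study name Hisat2 and featureCounts, whereas the submitters' processing notes name Bowtie2 and HTSeq. The annotation release, the strand setting and the treatment of reads that match several places are not given in the sources used here. The other deposited values used, gene lengths in bases, are lengths of merged exons.

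From the counts, edgeR 4.0.16 in R 4.3.3 was run with filterByExpr, TMM factors and the quasi-likelihood F test, p-values of 17514 genes were adjusted by the Benjamini-Hochberg method, and genes at 0.05 or less were called. The standard error was taken as |log2 fold change| over the root of F. To normalize a count, it was divided by its library's effective size (TMM) and rescaled to the mean effective size. FPKM was computed from the count, the deposited length and the library total. Shares within families, computed from FPKM without GC content and length offsets, were compared by exact two-sided permutation tests over libraries. GC content and length offsets were natural splines of 5 degrees of freedom per library, fitted to 17415 genes, since 99 tested genes had no GC value. Library totals were 14882914 to 17692882 counts, a floor of 3 counts was used, and it covers counting error only.

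The members and lists were chosen with earlier results of these data known. Named were all members, GFI1, up to 5 genes per further list with the largest change among called genes with a mean of at least 100 normalized counts and no overlap between groups, and pseudogenes with over 1% of the counts of a member. Some genes that this rule names are not reported here. All 6 values are given for the HIF alpha subunits and, among members with that mean, for the 3 largest increases and decreases in each role. Genes sharing over 10% of 50-base words with other genes were called uncertain. These are ALDOA, LDHB, PGAM1, ANKRD37, CA9, GAPDH, SLC2A3, BNIP3 and TPI1. Coordinates and GC content come from the GENCODE annotation of GRCh38, promoters from RefSeq. DESeq2 1.42.0, other size factors, other filters, a replicate block, each library left out and a threshold of 0.01 were alternatives, and canonical transcript lengths for shares and sums were added after seeing the data. The steps were tested on simulated data. Tables and figures were made in Python 3.11.15 with numpy 2.4.6, pandas 2.3.3 and matplotlib 3.10.9.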

Additional observations from a re-analysis of the deposited data

How the results depend on the processing

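Of the 35 tested members, the direction and the call of all 35 were the same with library size alone, median-of-ratios factors, no filter on low counts or pseudogene counts added, and of 34 with at least 10 counts in every library, under which the remaining member was not tested. With DESeq2 and with an adjusted p of at most 0.01, 34 were the same and PFKFB3 was no longer called. Each library left out in turn changed no direction except that of NDRG1, which was not called and ranged from -0.069 to 0.0042 on the log2 scale, the latter without WT replicate 1. The log2 fold change of PFKFB3 was 0.11 (adjusted p = 0.191, edgeR) without WT replicate 1 and 0.12 (adjusted p = 0.166, edgeR) without GFI1-KO replicate 2. That of GFI1, at 0.31, lost its call without WT replicate 2, WT replicate 3 or GFI1-KO replicate 2, with a range of 0.21 to 0.43 over all libraries left out. The difference in the ENO2 share of enolases, 0.091 percentage points, ranged from -0.084 without WT replicate 3 to 0.213.

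The GC content and length offsets changed most. With them 11 members and 6 enzymes were called higher, against 18 and 13, and 19 genes of the other lists were called lower, against 29. The median log2 fold change was 0.030 for the enzymes, against 0.17, and -0.34 for the hypoxia targets, against -0.48. The directions of GAPDH (-0.11), PGK1 (0.061), PGAM1 (-0.064), ENO1 (-0.0050), ENO2 (-0.15), PFKFB3 (-0.13) and HIF1A (0.20) turned, 4 further calls were lost, and ALDOC and NDRG1 became called as lower. The cause of the trend was not tested.

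The replicate numbers do not pair the libraries, as the deviations of same-numbered libraries correlated with r of -0.0062, 0.013 and 0.021. The replicate block changed no call of a member, with 18 called higher and 15 called lower. With the block and the offsets together, 11 members and 6 enzymes were called higher, the medians were 0.031 for the enzymes and -0.34 for the hypoxia targets, and the log2 fold changes of GAPDH (-0.11), PGK1 (0.061), PGAM1 (-0.063), ENO1 (-0.0044), ENO2 (-0.15), PFKFB3 (-0.13) and HIF1A (0.20) were turned as well. Chosen after seeing the data, the length of the canonical transcript gave a ratio of 0.909 for the summed hypoxia targets, counts without length 0.954 and the main value was 0.836, while the sum of the enzymes had a ratio of 1.13 without GAPDH, against 1.18. That length moved the differences in share of HK2 to -9.71, PFKL to 12.2 and SLC16A3 to 3.65 percentage points, with no change of direction in any family. Depth limits CA9, ADM, SLC16A3 and ALDOA most.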
